A study of Mus musculus with 8 samples.

Results

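The bile acid and organic anion transporters of mouse liver were represented by 10 genes, which 16 probe sets measured among the 45037 non-control probe sets and 18193 named genes of the array. A probe set was taken as a member where the platform annotation gave the symbol of one of these genes and no other. The canalicular export genes Abcb11, Abcb4, Abcc2 and Atp8b1 had 4 probe sets, the basolateral export genes Abcc3 and Abcc4 had 2, and the uptake genes Slc10a1, Slco1a1, Slco1a4 and Slco1b2 had 10. All 16 passed the filter on dim probe sets. Of these 10 genes, 1 passed the test in 1 of 5 comparisons: Slco1a4, which encodes a sinusoidal uptake carrier for organic anions, was 2.03-fold higher in MT mice than in the mean of the 3 WT groups. In that comparison 0.795% of all probe sets tested were called. Against WT mice of the same age Slco1a4 did not pass (adjusted p = 0.18 by limma), and its call was lost in 8 of 15 alternative fits. Abcb11, which encodes the bile salt export pump, had the smallest p value of the group in the comparison of MT with WT mice at 3 months and in both comparisons of WT mice at 19 months with younger WT mice, and it missed the threshold in each.

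The study asked which hepatic genes change with age and depend on SIRT1, a protein deacetylase that uses NAD+. Liver RNA of 4 groups was hybridised to 8 one-colour arrays, with 2 arrays in each group. The WT groups were 3, 12 and 19 months old, and the MT group was Sirt1 -/- and 3 months old. All groups shared a mixed 129/FVB/Black Swiss background. The Sirt1 deletion was carried from the germ line and thus affected every tissue. Most such embryos die, so the MT livers came from the few survivors. Livers were collected in the morning, and whether an array held RNA of 1 mouse or of several was not given.

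Hepatocytes take bile acids from sinusoidal blood through the sodium-dependent carrier encoded by Slc10a1 and through sodium-independent carriers of the Slco family, and they secrete them across the canalicular membrane into bile. Canalicular export uses ATP-binding cassette pumps, and a phospholipid translocator and a flippase protect that membrane from its own bile salts. In cholestasis the pumps of the basolateral membrane, Abcc3 and Abcc4, return bile acids and conjugates to the blood.

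Signals were MAS5 values, in which the intensities of the oligonucleotides of a probe set are summarised and each array is scaled, here to a trimmed mean of 500.0. The median signal of an array lay between 74.7 and 83.1. Arrays of one group correlated at r = 0.913 to 0.926 over all non-control probe sets and arrays of different groups at 0.909 to 0.922, so the groups did not stand apart as wholes. The Sirt1 probe set read 589 and 539 on the 3-month WT arrays, and MT mice gave 615 and 713 (log2 difference 0.23, adjusted p = 0.674 by limma), but its place relative to the deleted part was not known, so it did not check the genotype. All 13 hepatocyte markers on the array, Alb, Ttr and Hnf4a among them, passed the filter. On every array the 3 Xist probe sets lay at or above the 95.2nd percentile of signal, and 9 probe sets of 3 Y-linked genes lay at or below the 43.1st percentile. The methods describe the mutant mice as males, which these Xist and Y-linked readings do not match, and the labels give no sex. These readings were alike in all 4 groups.

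Promoters are shown for Abcb11, Slco1a1 and Slco1a4, which passed the test or had the largest difference of the group in a comparison. Abcc3 and Atp8b1 also met that rule. Each sequence is the RefSeq promoter window on GRCm38.p6, from 250 bases before to 50 bases after the start of the gene, written 5′ to 3′ on the strand of the gene. Capitals mark matches to any of the motifs searched on both strands. The Abcb11 window is chr2:69342567-69342866, the Slco1a1 window is chr6:141946913-141947212 and the Slco1a4 window is chr6:141856171-141856470, all on the minus strand.
Abcb11: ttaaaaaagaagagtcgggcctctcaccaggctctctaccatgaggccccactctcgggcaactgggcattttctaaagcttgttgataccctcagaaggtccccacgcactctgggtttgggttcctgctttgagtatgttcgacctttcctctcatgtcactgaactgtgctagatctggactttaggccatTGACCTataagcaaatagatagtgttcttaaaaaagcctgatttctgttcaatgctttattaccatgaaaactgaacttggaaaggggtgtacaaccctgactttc
Slco1a1: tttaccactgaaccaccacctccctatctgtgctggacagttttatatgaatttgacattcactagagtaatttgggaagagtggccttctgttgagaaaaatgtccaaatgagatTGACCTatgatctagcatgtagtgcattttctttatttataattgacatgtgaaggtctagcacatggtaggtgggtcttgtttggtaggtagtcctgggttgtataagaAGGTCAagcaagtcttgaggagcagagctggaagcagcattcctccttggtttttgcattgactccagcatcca
Slco1a4: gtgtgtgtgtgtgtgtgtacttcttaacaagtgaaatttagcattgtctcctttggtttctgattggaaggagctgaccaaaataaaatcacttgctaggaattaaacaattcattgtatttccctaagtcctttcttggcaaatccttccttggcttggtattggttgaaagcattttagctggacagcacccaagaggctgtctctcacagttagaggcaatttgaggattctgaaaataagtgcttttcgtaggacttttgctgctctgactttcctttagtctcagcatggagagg
The motifs were CACGTG (E-box), TTATGTAA (D-box), AGGTCA (nuclear receptor half-site), TGACNNNGC (antioxidant response element core), TTCNNNGAA (STAT site) and GTTAAT (HNF1 half-site). The nuclear receptor half-site matched 1 time in the Abcb11 window, as its reverse complement, and 2 times in the Slco1a1 window, in opposite orientations. The Slco1a4 window held none of the 6 motifs. Over the 32851 promoter windows of the table, 16.3% held the half-site, 12.4% the antioxidant core, 8.3% the STAT site, 7.15% the E-box, 7.1% the HNF1 half-site and 0.938% the D-box. These matches describe the letters of the windows and show no binding.

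Log2 signals of all 8 arrays were fitted together in limma for the 22519 probe sets in the upper 50% of mean signal, and p values were adjusted over all of them. Between MT and WT mice at 3 months 0 of the 16 transporter probe sets were called at an adjusted p under 0.05, where 116 of all probe sets tested were called, a share of 0.515%. At an unadjusted p under 0.05 there were 5 transporter probe sets, 2 higher and 3 lower in MT mice, against a background of 13.5%. The median difference over the 10 genes was 0.06 on the log2 scale, and the median absolute difference was 0.25, against 0.23 over all probe sets tested.

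With age, no transporter probe set was called either, and few probe sets of any kind were. Between WT mice at 12 and 3 months limma called 3 probe sets in all (0.0133%) and 0 of the transporters, while at an unadjusted p under 0.05 there were 2 transporter probe sets, both lower at 12 months, against a background of 8.57%. Between 19 and 3 months it called 8 in all (0.0355%) and 0 of the transporters, and at an unadjusted p under 0.05 there were 4, of which 1 was higher and 3 lower at 19 months, against 12.5%. Between 19 and 12 months it called 0 of all probe sets (0.0%), and at an unadjusted p under 0.05 there were 4 transporter probe sets, 2 in each direction, against 10.7%. The median difference over the genes was -0.25 at 12 months and -0.29 at 19 months against 3 months, with medians over all probe sets tested within 0.03 of 0. The median absolute difference between 19 and 3 months was 0.41 over the transporter genes and 0.22 over all probe sets tested, and 8 of the 10 genes had a lower mean at 19 months.

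The MT arrays were also set against the mean of the 3 WT groups, which sets 3-month mice against WT mice of 3 ages. There 1 of 16 transporter probe sets was called, that of Slco1a4, and 179 of all probe sets were called (0.795%). At an unadjusted p under 0.05 there were 6 transporter probe sets, 3 higher and 3 lower, against 14.4%. On 4 of the 16 probe sets both MT arrays lay outside the range of all 6 WT arrays, against 14.0% of all probe sets tested. Those of Abcc4 and Slco1a4 lay above the range and both of Slco1a1 lay below it. The comparisons of MT, 12-month and 19-month mice with 3-month WT mice share the 3-month WT arrays, and both MT comparisons share the MT arrays, so their values are given side by side and are not independent of each other.

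**Figure D1:**
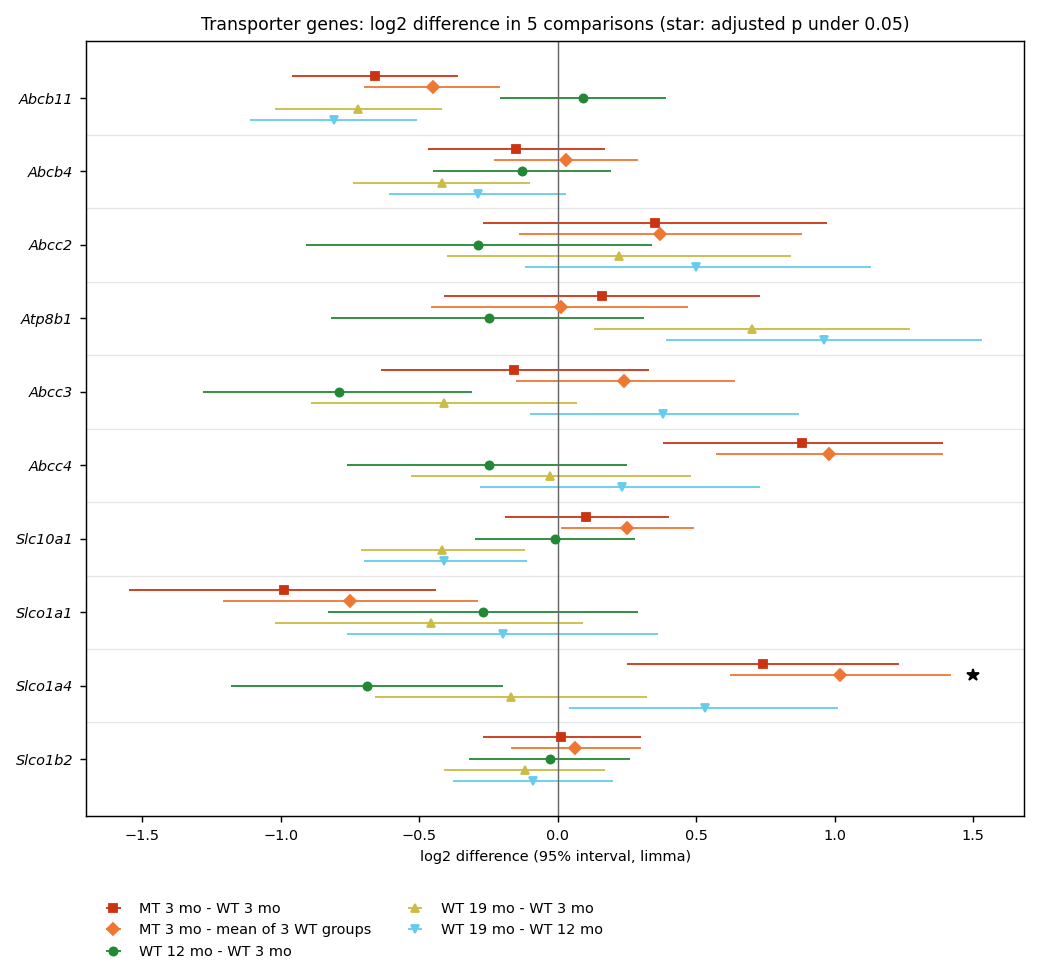
Log2 difference of the 10 transporter genes, each by 1 probe set, in 5 comparisons. The x axis is the log2 difference, points are limma estimates and bars are 95% intervals. The star marks the only call at an adjusted p under 0.05, that of Slco1a4 against the mean of the 3 WT groups (1.02), and the Abcb11 estimates lie left of 0 in every comparison except 12 against 3 months (0.09).

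Among the canalicular genes, Abcb11 had the most negative difference from WT mice at 3 months in both the MT and the 19-month groups. Its product pumps conjugated bile salts into the canaliculus and drives the flow of bile. The Abcb11 signal was 13836 and 13047 on the arrays of WT mice at 3 months, 15277 and 13430 at 12 months, 8912 and 7455 at 19 months, and 8216 and 8771 in MT mice. The 4 arrays of younger WT mice and the 4 arrays of old WT and MT mice did not overlap, whereas MT and 19-month arrays did, as did 3-month and 12-month arrays. This split was read from the Abcb11 values themselves, and its share over all probe sets was not counted. Between MT and WT mice at 3 months the log2 difference was -0.66 ± 0.13 (SE, 95% interval -0.96 to -0.36, adjusted p = 0.0676 by limma), which made the WT level 1.58-fold that of MT mice. Between 19 and 3 months it was -0.72 ± 0.13 (-1.02 to -0.42, adjusted p = 0.123), and between 19 and 12 months -0.81 ± 0.13 (-1.11 to -0.51, adjusted p = 0.152). None of these passed the threshold, although the gene ranked 20th of 22519 by p in the last of them. The methods' t-test, with an unadjusted p under 0.05 and a fold above 1.5, took Abcb11 in all 3 of these comparisons but after Benjamini-Hochberg adjustment that test called 0 probe sets in each. In the same order, adjusted p values ranged over 0.0527 to 0.361, 0.0858 to 0.48 and 0.0987 to 0.482 when single arrays were left out.

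Abcb4 encodes the translocator that moves phosphatidylcholine into bile. Its signal was 7245 and 6998 at 3 months, 5968 and 7110 at 12 months, 4882 and 5814 at 19 months and 6694 and 6124 in MT mice. Both 19-month arrays lay below all others, and the other groups were close to each other. The difference between 19 and 3 months was -0.42 ± 0.14 on the log2 scale (-0.74 to -0.10, adjusted p = 0.301), and that between MT and WT mice at 3 months was -0.15 ± 0.14 (-0.47 to 0.17, adjusted p = 0.705).

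Abcc2 encodes the canalicular pump for conjugated bilirubin and other organic anions. Its signal was 4340 and 4716 at 3 months, 2575 and 5353 at 12 months, 5082 and 5449 at 19 months and 6226 and 5329 in MT mice. The 12-month arrays differed from each other more than any group means did, and both MT arrays lay above both WT arrays of the same age. The difference of MT from WT mice at 3 months was 0.35 ± 0.28 (-0.27 to 0.97, adjusted p = 0.64), an interval wide enough to hold both no difference and a difference of 0.97.

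Atp8b1 encodes a flippase that keeps the lipids of the canalicular membrane asymmetric. Its signal was 1206 and 1081 at 3 months, 958 and 956 at 12 months, 1394 and 2482 at 19 months and 1114 and 1452 in MT mice. The second 19-month array stood above all the rest, the 12-month arrays stood lowest, and MT and WT arrays of 3 months overlapped. The 19-month group exceeded the 12-month group by 0.96 ± 0.25 (0.39 to 1.53, adjusted p = 0.274) and the 3-month group by 0.70 ± 0.25 (0.13 to 1.27, adjusted p = 0.323). Without the second 19-month array these differences were 0.54 and 0.29. That array also had the highest sum of macrophage markers, 61088 against 38619 on the other 19-month array, and the part of these markers in the Atp8b1 value was not tested.

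**Figure D2:**
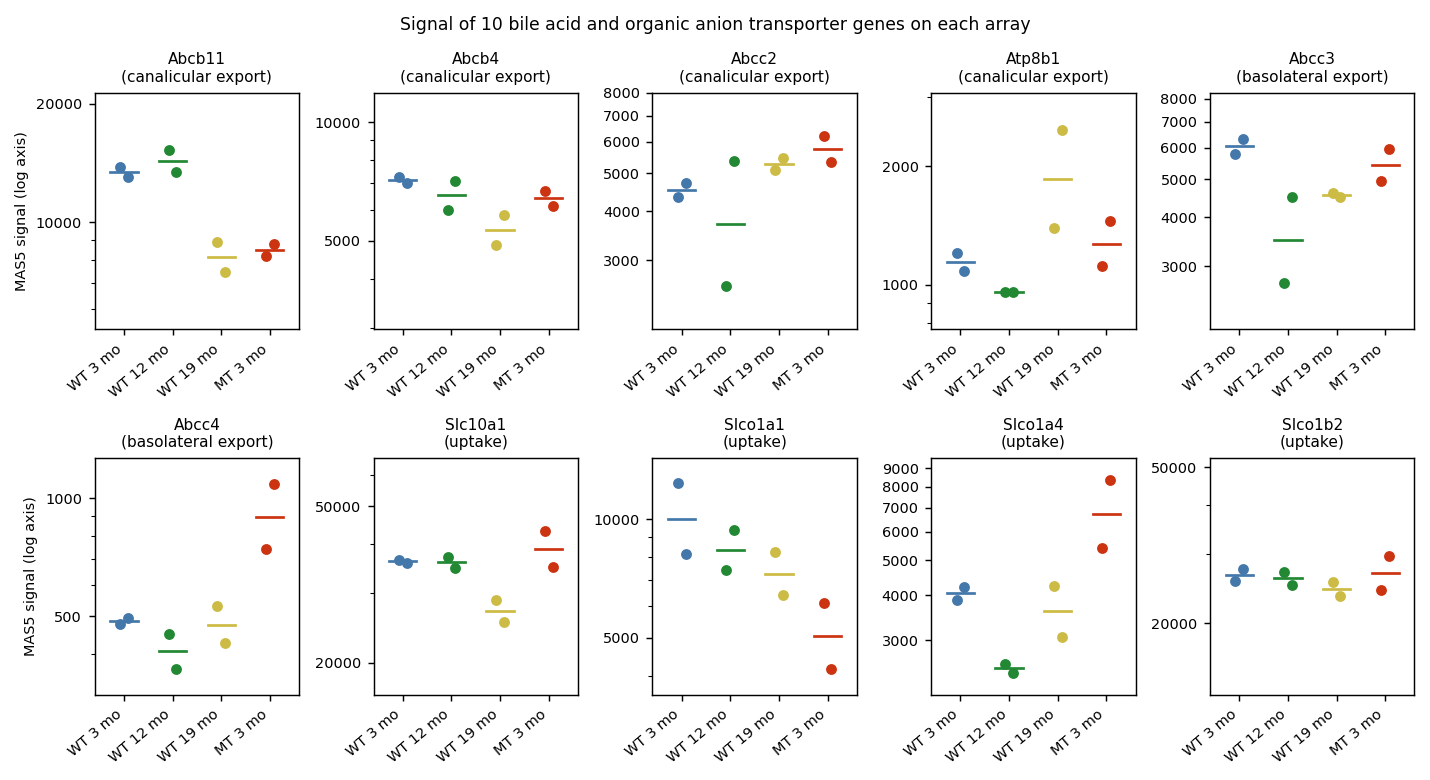
MAS5 signal (y axis, log scale, a separate range for each gene) of the 10 transporter genes on each of the 8 arrays, by group. Points are arrays and bars are geometric means of 2 arrays. Abcb11 is lower on the 19-month and MT arrays (7455 to 8912) than on the younger WT arrays (13047 to 15277), and Abcc4 and Slco1a4 are highest on the 2 MT arrays.

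Of the basolateral export genes, Abcc4 lay above the WT range in MT mice, and Abcc3 was lower in both older WT groups than at 3 months without passing the test. Abcc4 encodes a pump that exports bile acids together with glutathione, and also cyclic nucleotides. The Abcc4 probe set read 477 and 495 on the 3-month WT arrays, 452 and 368 at 12 months, 532 and 427 at 19 months, and 741 and 1086 in MT mice. Both MT arrays lay above all 6 WT arrays, and the WT groups of 3 and 19 months overlapped. The MT excess was 0.88 ± 0.22 over WT mice at 3 months (0.38 to 1.39, 1.85-fold, adjusted p = 0.124) and 0.98 ± 0.18 over the mean of the 3 WT groups (0.57 to 1.39, 1.97-fold, adjusted p = 0.0506). The second value stood at the threshold and passed it with log2 of signal plus 16 (adjusted p = 0.0489), with the filter at the upper 25% (0.0433) and without the first 12-month array (0.0474). Without the second MT array it was 0.70 (adjusted p = 0.249).

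Abcc3 encodes the basolateral pump for glucuronides and bile acid conjugates. It read 5799 and 6323 at 3 months, 2717 and 4503 at 12 months, 4615 and 4499 at 19 months and 4944 and 5968 in MT mice. Both older WT groups lay below both 3-month WT arrays, and MT and WT arrays of 3 months overlapped. The 12-month group differed from the 3-month group by -0.79 ± 0.22 (-1.28 to -0.31, adjusted p = 0.352), the largest difference of the group in that comparison. Without the first 12-month array it was -0.43 (adjusted p = 0.476) and without the second -1.16 (adjusted p = 0.0791). Between MT and WT mice at 3 months it was -0.16 ± 0.22 (-0.64 to 0.33, adjusted p = 0.817).

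Of the uptake genes, the members of the Slco1a family stood on opposite sides of the WT range in MT mice. Slco1a4 encodes an uptake carrier for bile acids, cardiac glycosides and other organic compounds. Its signal was 3875 and 4222 on the 3-month WT arrays, 2576 and 2435 at 12 months, 4238 and 3065 at 19 months, and 5423 and 8368 on the MT arrays. The MT arrays lay above all WT arrays, the 12-month arrays lay below all others, and the 3-month and 19-month arrays overlapped. Against the mean of the 3 WT groups Slco1a4 was higher in MT mice by 1.02 ± 0.18 (0.62 to 1.42, 2.03-fold, adjusted p = 0.0393), and both MT arrays showed this direction. Against WT mice at 3 months alone the difference was 0.74 ± 0.22 (0.25 to 1.23, 1.67-fold, adjusted p = 0.18), and it was 0.42 without the second MT array (adjusted p = 0.463). The call was lost without the second MT array (0.71, adjusted p = 0.187), without the first or the second 3-month WT array (adjusted p = 0.108 and 0.0951), and without the second array of the 12-month (1.01, adjusted p = 0.054) or the 19-month group (0.94, adjusted p = 0.0777). It was also lost with median scaling (0.97, adjusted p = 0.0574) and with no variance trend (1.02, adjusted p = 0.146). The methods' rule took Slco1a4 as lower at 12 than at 3 months without adjustment, where limma gave -0.69 ± 0.22 (-1.18 to -0.20, adjusted p = 0.438).

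Slco1a1 encodes a related carrier for steroid sulfates and bile acids, and its product is known to be more abundant in male than in female mouse liver. The brighter of its 2 probe sets, 1420379_at, read 12358 and 8154 at 3 months, 7413 and 9386 at 12 months, 8267 and 6399 at 19 months and 6126 and 4146 in MT mice. Probe set 1449844_at read 3369 and 2694, 2284 and 2950, 2720 and 2725, and 2100 and 1471 in the same order. On both probe sets the MT arrays lay below all 6 WT arrays, and the WT groups overlapped. The differences between MT and WT mice at 3 months were -0.99 ± 0.25 (-1.55 to -0.44, adjusted p = 0.118) and -0.78 ± 0.21 (-1.24 to -0.32, adjusted p = 0.135), which put the WT level at 1.99-fold and 1.71-fold that of MT mice. Against the mean of the 3 WT groups they were -0.75 ± 0.20 (adjusted p = 0.13) and -0.66 ± 0.17 (adjusted p = 0.116). Leaving out the second MT array gave -0.47 for the first of these (adjusted p = 0.503).

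Slc10a1 encodes the sodium-dependent carrier that takes conjugated bile acids from sinusoidal blood. Its brighter probe set, 1424898_at, read 36467 and 35917 at 3 months, 37204 and 34726 at 12 months, 28846 and 25393 at 19 months and 43265 and 34968 in MT mice. Both 19-month arrays lay below all others, and MT and 3-month WT arrays overlapped. The 19-month group differed from the 3-month group by -0.42 ± 0.13 (-0.71 to -0.12, adjusted p = 0.273) and from the 12-month group by -0.41 ± 0.13 (-0.70 to -0.11, adjusted p = 0.329). The other probe set, 1450261_a_at, read 15916 to 21379 at 19 months and 21789 to 25757 on the younger WT arrays, and gave -0.31 ± 0.22 (adjusted p = 0.607) between 19 and 3 months. Between MT and WT mice at 3 months the difference was 0.10 ± 0.13 (-0.19 to 0.40) on the brighter probe set.

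Slco1b2 encodes the most hepatocyte-restricted carrier of its family. Its brightest probe set, 1449394_at, read 25635 and 27490 at 3 months, 27045 and 25093 at 12 months, 25526 and 23428 at 19 months and 24261 and 29634 in MT mice. No difference on that probe set was larger than 0.12 in size, and the 95% interval between MT and WT mice at 3 months ran from -0.27 to 0.30. The interval between 19 and 3 months ran from -0.41 to 0.17. The 4 other probe sets disagreed with it in part: 1452569_at read 331 and 188 at 3 months and 138 and 165 at 19 months, a difference of -0.72 ± 0.33 (adjusted p = 0.412) that was -0.31 without the first 3-month WT array and -1.13 without the second. Probe set 1427825_at, at 69.9 to 120 over the arrays, lay below the array median on both 19-month arrays, so no fold is given against that group. Probe sets 1452494_s_at and 1427826_a_at read 21428 to 29514 and 2439 to 4004.

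**Figure D3:**
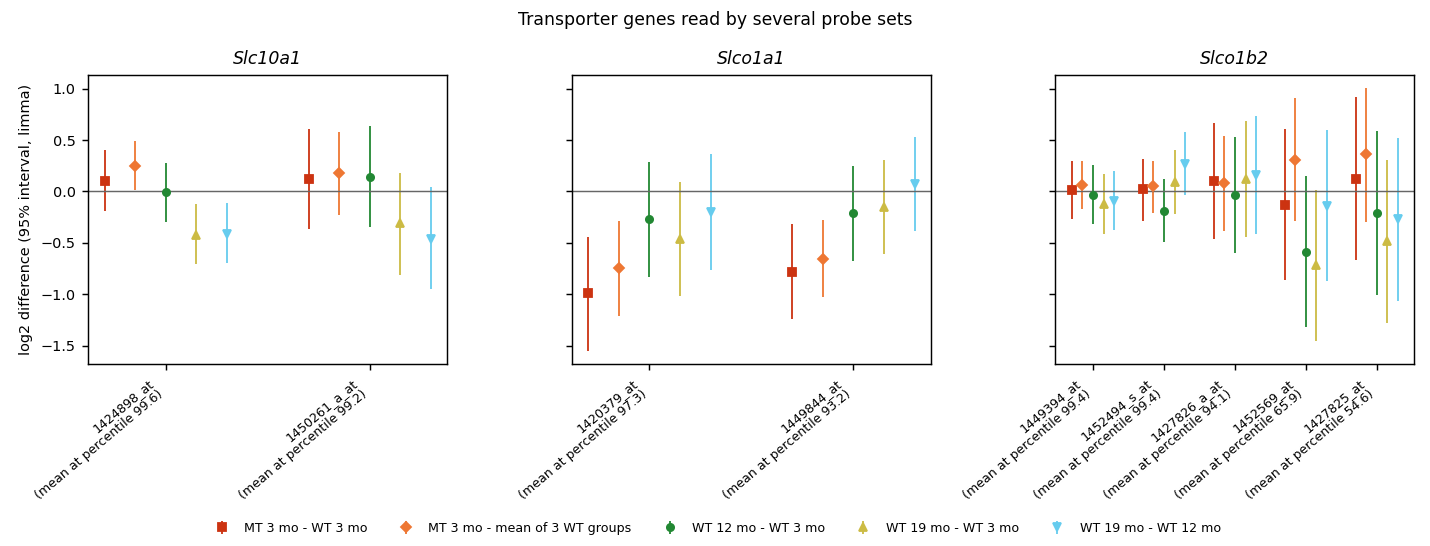
Log2 differences (y axis, limma estimates with 95% intervals) in 5 comparisons for each probe set of Slc10a1, Slco1a1 and Slco1b2, the genes with more than 1 probe set. The x axis gives the probe set and the percentile of its mean log2 signal among all non-control probe sets. Both Slco1a1 probe sets lie below 0 in the MT comparisons (-0.99 and -0.78 against WT mice at 3 months), and the dimmer Slco1b2 probe sets differ from the brightest.

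Over the 8 arrays the log2 signals of the genes varied together to different degrees. Slco1a4 and Abcc4 had r = 0.95, and both were highest on the second MT array and next on the first. Slco1a1 ran the other way from Abcc4 (r = -0.76). Atp8b1 ran against Slc10a1 (r = -0.79) and Abcb11 (r = -0.75). These 8 points are shared by every pair and hold 4 groups, so the values are descriptions and have no p value. Among probe sets of one gene, r was 0.93 for Slco1a1, 0.87 for Slc10a1 and from -0.80 to 0.63 for Slco1b2.

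The other tested probe sets most like a transporter over the same 8 arrays were sought for the 3 genes with the widest range of group means. For Slco1a4 they were Mxra8 (r = 0.979), Fubp1 (0.973) and Cat (0.971), which encodes catalase. For Abcc4 they were Nckipsd (0.987), Tmem109 (0.965) and the cell cycle gene Cks1b (0.96). Cks1b read 1191 and 1338 on the 3-month WT arrays, whereas the MT arrays gave 2104 and 3128. For Slco1a1 they were Tgif1 (0.965), Scmh1 (0.961) and Otud5 (0.96). These were the highest of 19279 probe sets of other genes compared for Slco1a4 and Abcc4 and of 19278 for Slco1a1.

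Of 43 other genes of hepatic transport of bile acids, lipids, organic anions and cations, 36 were on the array and 31 were tested. Against the mean of the 3 WT groups 1 of the 31 was called, Slc10a2, and in the other 4 comparisons limma and the adjusted methods' t-test called 0, with 4 to 8 genes at an unadjusted p under 0.05, where the shares over all probe sets were 8.57% to 13.5%. Slc10a2 encodes the sodium-dependent bile acid carrier of ileum and bile duct. It read 399 and 902 on the 3-month WT arrays, 538 and 1722 at 12 months, 2675 and 2025 at 19 months and 233 and 71.8 in MT mice, so both MT arrays lay below all WT arrays. It was lower in MT mice by -3.09 ± 0.52 on the log2 scale (adjusted p = 0.0346), and against WT mice at 3 months alone the difference was -2.22 ± 0.64 (adjusted p = 0.17). The call was lost in 6 of 15 alternatives, without the second MT array (-2.25, adjusted p = 0.192) among them. Of the 10 bile duct markers on the array, which include Slc10a2, 3 were tested: Epcam read 97.2 and 123 in MT mice against 53.6 to 106 in WT mice, and Prom1 read 461 and 305 against 321 to 1650. Krt19 read 76.9 and 148 in MT mice against 29.0 to 81.7, and Cftr and Sctr were low on all arrays. The 9 duct markers other than Slc10a2 summed to 776 to 828 in MT mice and 757 to 2030 on WT arrays of all ages. That WT range pools 3 ages, and its highest sum was that of a 3-month array. All 10 summed to 2429 to 2767 on the 3-month WT arrays and to 847 to 1060 in MT mice. Of the 3 tested, 2 had a lower mean in MT than in 3-month WT mice, Slc10a2 and Prom1 (-2.11), with 0 limma calls. Both had an unadjusted limma p under 0.05, as had 13.5% of all probe sets tested. The part of the other duct markers in the Slc10a2 result was not tested.

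Slc22a27, an organic anion carrier, read 1430 and 1574 at 3 months, 2275 and 2580 at 12 months, 2849 and 2302 at 19 months and 2669 and 2448 in MT mice. The 3-month WT arrays lay below all the others, and the difference was 0.77 ± 0.16 both in MT mice (adjusted p = 0.0687) and at 19 months (adjusted p = 0.151). Abcc5, a pump for cyclic nucleotides, differed by -0.77 ± 0.40 between MT and WT mice at 3 months (adjusted p = 0.45). The medians over the 31 genes were -0.12 in that comparison and -0.06 between 19 and 3 months.

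Of 17 tested genes of bile acid synthesis and conjugation, 1 was called, Cyp7b1, which hydroxylates oxysterols in the alternative pathway. The call came in MT mice against 3-month WT, in MT mice against the mean of the 3 WT groups and between 19 and 3 months. In that order 0.515%, 0.795% and 0.0355% of all probe sets were called. At an unadjusted limma p under 0.05 there were 7 of the 17 between 19 and 3 months, all lower, against 12.5%. In the other comparisons there were 1 to 6, against 8.57% to 14.4%. Of the 17, 14 had a lower mean at 19 than at 3 months (median -0.25). Cyp7b1 read 7842 and 6406 at 3 months, 3304 and 3692 at 12 months, 2956 and 3253 at 19 months and 1670 and 1620 in MT mice. Both MT arrays lay below all others, and the 3-month WT arrays lay above all others. Cyp7b1 fell by 2.11 ± 0.15 on the log2 scale in MT mice against WT mice at 3 months (adjusted p = 0.000748), a call that held in all 16 alternatives fitted in limma, while the methods' t-test called 0 probe sets of any gene in this comparison after adjustment. It fell by 1.19 ± 0.15 between 3 and 19 months (adjusted p = 0.0459), a call lost in 6 of 16 limma alternatives, including every one that left out a 3-month or 19-month array. Cyp8b1, which sets the share of cholic acid, read 6493 and 4379 at 3 months, 7298 and 2089 at 12 months, 1772 and 946 at 19 months and 2504 and 465 in MT mice, with differences of -2.31 ± 0.75 in MT mice (adjusted p = 0.224) and -2.04 ± 0.75 at 19 months (adjusted p = 0.332), both against 3 months. Without the second MT array the former was -1.09, and without the first -3.52. Cyp7a1, the rate-limiting enzyme of the classical pathway, ranged from 658 to 10786, both in the 12-month group, and its largest difference, that of MT from WT mice at 3 months, was 1.30 ± 1.11 (adjusted p = 0.673).

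Of 24 tested nuclear receptors and other regulators of transporter genes, limma called 0 in any comparison and the methods' t-test called 0 after adjustment, with 3 to 6 genes at an unadjusted limma p under 0.05, where the shares over all probe sets were 8.57% to 14.4%. Nr1h4 (FXR), the bile acid receptor that induces Abcb11, read 2468 and 3238 at 3 months, 3732 and 3252 at 12 months, 3599 and 3816 at 19 months and 2629 and 2639 in MT mice, and the difference of MT from WT mice at 3 months was -0.10 ± 0.16 (adjusted p = 0.841). Nr0b2 (SHP), a repressor that FXR induces, read 4401 and 2418, 1127 and 1252, 2036 and 3584, and 3344 and 2902 in the same order. Its 12-month arrays lay below all others (-1.46 ± 0.31 against 3 months, adjusted p = 0.233), and the MT difference was -0.07 ± 0.31 (adjusted p = 0.953). Stat5b, which carries the growth hormone signal, read 1516 and 1432 on the 3-month WT arrays, whereas MT mice gave 846 and 738 (-0.90 ± 0.16, adjusted p = 0.0528). Bcl6, a repressor of growth hormone targets, differed by 0.78 ± 0.35 (adjusted p = 0.379). Between 19 and 3 months the largest differences were those of Onecut1 (0.74, adjusted p = 0.549) and Ppargc1a (-0.61, adjusted p = 0.494).

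**Figure D4:**
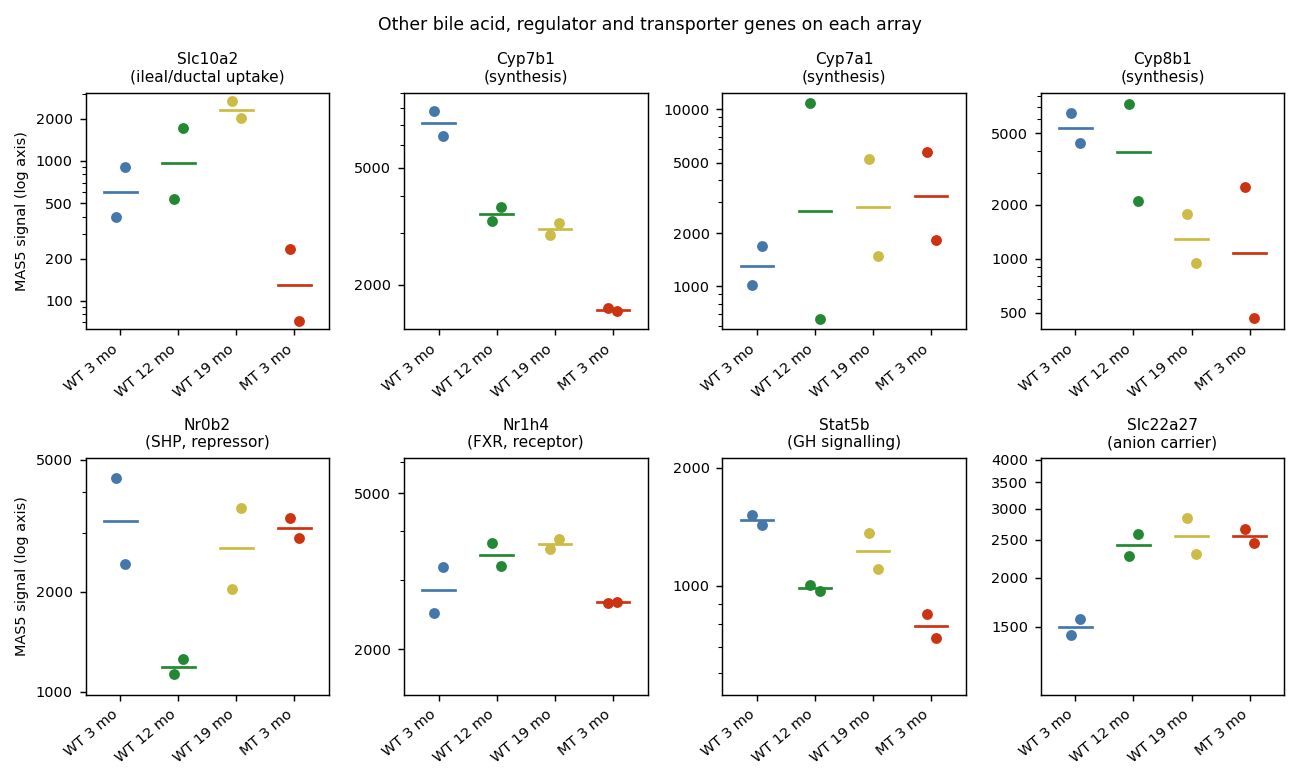
MAS5 signal (y axis, log scale, a separate range for each gene) of 8 other transporter, bile acid synthesis and regulator genes on each array, by group. Points are arrays and bars are geometric means of 2 arrays. Cyp7b1 is lowest on the MT arrays (1620 and 1670) and Slc10a2 on the MT arrays (71.8 and 233), while the Cyp7a1 arrays of a group lie far apart.

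The levels of a hepatocyte transporter in whole liver depend on the share of hepatocytes, and fewer cells of a type and less RNA per cell cannot be told apart in these samples. Of 13 hepatocyte markers, 11 had a lower mean at 19 than at 3 months, with a median of -0.21 and 0 limma calls (4 at an unadjusted p under 0.05, all lower), and their summed signal was 443003 to 505814 at 19 months against 548785 to 580139 at 3 months. Of the 10 transporters, 8 had a lower mean at 19 months, with a median of -0.29. Of 12 macrophage markers, 12 had a higher mean at 19 months, with a median of 0.65 and 0 limma calls (7 at an unadjusted p under 0.05, all higher), and their summed signal was 38619 to 61088 against 31517 to 32596. Of all probe sets tested, 12.5% had an unadjusted p under 0.05 between 19 and 3 months. The 3′ to 5′ log2 ratio of the pyruvate carboxylase control probe sets, a sign of RNA integrity, was 4.54 to 5.86 on the 12-month and 19-month arrays and 3.88 to 4.25 on the 3-month arrays of both genotypes. With beta-actin the ratio was 1.23 to 1.31 on the older WT arrays against 1.09 to 1.22 on the 3-month WT arrays, and with Gapdh -0.46 to -0.34 against -0.59 to -0.51. The MT arrays read 0.97 and 1.48 with beta-actin and -0.62 and -0.38 with Gapdh, and the second of them, which had the highest Slco1a4 and Abcc4 signals, had the highest beta-actin ratio of all 8. The part of these in the 19-month values of Abcb11, Abcb4 and Slc10a1, and in the MT values of Slco1a4 and Abcc4, was not tested.

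Hepatocyte markers of MT mice lay mostly above their level in WT mice of the same age. Their summed signal was 589430 to 613596, above both 3-month WT arrays, and 11 of 13 had a higher mean than in WT mice at 3 months, with a median of 0.09. Over all probe sets tested that median was 0.02. Limma called 0 of the 13, and 2 had an unadjusted p under 0.05, both higher, against 13.5% of all probe sets. The macrophage markers summed to 24051 to 26382 in MT mice and to 28013 or more on every WT array. Against WT mice at 3 months 10 of 12 had a lower mean (median -0.28), with 0 limma calls and 0 at an unadjusted p under 0.05. Against the mean of the 3 WT groups, which holds the higher 19-month arrays, 12 of 12 were lower, with a median of -0.45 and 0 limma calls (6 at an unadjusted p under 0.05). The shares of all probe sets at that p were 13.5% and 14.4% in these comparisons, in that order. No marker list had more than 1 gene called in an MT comparison: Slc10a2 of bile duct, Stab2 of sinusoidal endothelium (-0.81, adjusted p = 0.0489) and Igha of plasma cells (-0.99, adjusted p = 0.033), all lower than the mean of the 3 WT groups. The Stab2 call was lost in 11 of 15 alternatives and the Igha call in 6 of 15.

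Genes of zone and sex were read in the same way, since several transporters are zoned or sex-biased. Of 14 pericentral and 11 periportal hepatocyte genes limma called 0 in any comparison. At an unadjusted p under 0.05 there were 1 to 9 pericentral and 1 to 4 periportal genes, of which 6 and 4, all lower, were in the comparison of 19 with 3 months. The shares over all probe sets, in either direction, were 12.5% there, 8.57% between 12 and 3 months and up to 14.4% in the others. At 19 against 3 months 11 of 14 pericentral genes had a lower mean (median -0.35), and so did 11 of 11 periportal genes (median -0.37). At 12 against 3 months, where Slco1a4 and Abcc3 stood lowest, 12 of 14 pericentral genes had a lower mean (median -0.47, with 8 lower at an unadjusted p under 0.05), and 7 of 11 periportal genes did (median -0.03). The part of zone in the Slco1a4 and Abcc3 values was not tested. In MT mice against the mean of the 3 WT groups, where Slco1a4 was called, 10 of 14 pericentral genes had a higher mean (median 0.18). So did 8 of 11 periportal genes (median 0.09). At an unadjusted limma p under 0.05 there were 7 and 4, of which 5 and 3 were higher, against 14.4% of all probe sets. In MT against WT mice at 3 months the pericentral and periportal medians were -0.09 and 0.09. The genes furthest from 0 in MT mice were Tbx3 (-0.85, adjusted p = 0.323) and Rhbg (-0.55, adjusted p = 0.447) among the pericentral and Cdh1 (-1.51, adjusted p = 0.299) and Ctsc (-0.66, adjusted p = 0.298) among the periportal genes. At 19 months they were Oat (-1.05, adjusted p = 0.386) and Rhbg (-0.92, adjusted p = 0.277), and Hsd17b13 (-2.20, adjusted p = 0.591) and Cdh1 (-1.96, adjusted p = 0.26). Of 12 tested male-biased genes, Cyp7b1 was called as above, and C9, a complement component, was lower in MT mice than in the mean of the 3 WT groups (-1.46, adjusted p = 0.0428, lost in 9 of 15 alternatives). Against the mean of the 3 WT groups both were called, 2 of the 12, where 0.795% of all probe sets were. The male-biased genes had a median of -0.30 between MT and WT mice at 3 months, with 9 of 12 means lower in MT mice, and Slco1a1 lay on the same side. There 6 of the 12 had an unadjusted limma p under 0.05, 1 higher and 5 lower, against 13.5% of all probe sets. Of the 16 male-biased genes on the array, Cyp4a12a and Moxd1 lay below the median of every array. The part of sex in these values was not tested. Of 16 female-biased genes limma called 0 (4 at an unadjusted p under 0.05) and 11 had a lower mean in MT mice, with a median of -0.15, while Slco1a4 was above the WT range. The share of all probe sets at that p between MT and WT mice at 3 months was 13.5%. Prom1 differed by -2.11 (adjusted p = 0.0813) and Cyp3a16 by -1.70 (adjusted p = 0.433) in that comparison, and Prom1 by -1.65 (adjusted p = 0.241) between 19 and 3 months. Cyp17a1 read 205 and 527 at 3 months and 156 and 7.79 at 19 months, the last below the array median, so no difference is given for it.

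**Figure D5:**
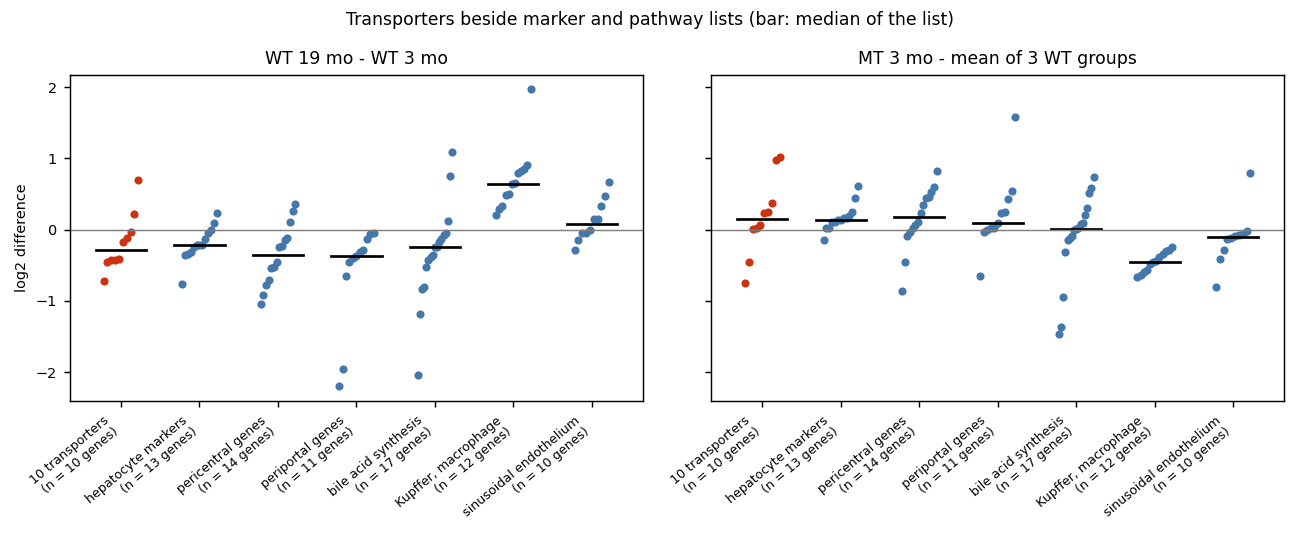
Log2 differences (y axis) of the genes of 7 lists, each point a gene and each bar the median of the list, between WT mice at 19 and 3 months (left) and between MT mice and the mean of the 3 WT groups (right). At 19 months the medians of the transporters (-0.29) and hepatocyte markers (-0.21) lie below 0 and that of the macrophage markers (0.65) above it.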

How the data were processed

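Liver RNA of 8 samples was measured on Affymetrix Mouse Genome 430 2.0 arrays. The deposited values are linear signal intensities that the authors computed with MAS5 (version not given in the sources used here), scaled on each array. Duplicates were samples the labels list separately, and since nothing says that they came from separate mice, p-values speak to the spread of these samples alone, a spread that may be technical. The study's text speaks of 3 mice per group.

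Of the 45101 probe sets, 64 controls were left out, 34945 had 1 symbol in the platform annotation, 932 several and 9160 none. Intensities below 1 were set to 1 (1797 values), log2 transformed and fitted without further scaling in limma 3.58.1 (R 4.3.3), with 1 mean per group, a variance trend and Benjamini-Hochberg adjustment over the 22519 probe sets whose mean log2 signal ranked in the upper 50% (6.18 or more). The residual degrees of freedom were 4 and the prior ones 5.37. The fit was tested on simulated data. The other steps used Python 3.11.15.

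The transporters and all other gene lists were chosen with earlier results of these data known. Where a gene had several probe sets, the one with the highest mean log2 signal stands for it. Every transporter probe set is named. From the other lists the genes called, the 2 with the largest difference between MT and WT mice at 3 months and between WT mice at 19 and 3 months, Sirt1, Cyp7a1, Nr0b2 and Nr1h4 are named. Cell type markers are named where a transporter result turns on them or where they were called. The lists were other transporters, bile acid synthesis, regulators, male-biased and female-biased, pericentral and periportal and NRF2 genes, and markers of 10 cell types. Alternatives were another scaling, offset, filter, variance model, set of samples and threshold, the methods' t-test, a replicate block and leaving out each array. Protein sequences are not used here.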

Additional observations from a re-analysis of the deposited data

How the results depend on the processing

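The limits of these data were the 2 arrays per group and unknown pooling. Of 80 transporter differences, 21 had an interval that excluded 0, and none of their 335 alternative values changed sign, while of the other 949 alternative values 60 did. The 21 were picked by these same values, and some alternatives change only the filter or the spread and leave the estimate as it was. These counts are therefore no test of how stable the 21 are. Calls of single transporters changed for Slco1a4 (lost in 8 alternatives) and Abcc4 (gained in 3), both against the mean of the 3 WT groups. The cause was not tested.

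Numbers of transporter probe sets called were 1 in each of the 4 pairwise comparisons by the methods' t-test rule and 1 between MT and WT mice at 3 months at an adjusted p under 0.10. Against the mean of the 3 WT groups they were 2 with log2 of signal plus 16, with the upper 25% filter and at an adjusted p under 0.10, and 0 with median scaling, no variance trend and the replicate block. Leaving out 1 array gave 0 to 2 there and 0 in each other comparison. Over all probe sets, the 116 calls between MT and WT mice at 3 months became 890 by the methods' rule, 0 by that t-test after adjustment, 9 with no variance trend, 177 with the upper 25% filter, 413 at an adjusted p under 0.10 and 15 to 250 without 1 array. The 3 calls at 12 against 3 months became 5 with median scaling, 502, 0, 0 with no variance trend, 12 from those groups alone, 5 at 0.10 and 0 to 20. The 8 at 19 against 3 months became 21 with median scaling, 750, 0, 1 with no trend, 135 from those groups alone, 25 with the replicate block, 3 with the upper 25% filter, 57 at 0.10 and 2 to 30. The 0 at 19 against 12 months became 524 by the methods' rule, 3 with no filter, 5 from those groups alone, 4 at 0.10 and 0 to 11. The 179 against the mean of the 3 WT groups became 19 with no trend, 492 at 0.10 and 51 to 246.

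The differences between replicates correlated at -0.03 to 0.14 between groups, which showed no clear pairing by replicate number. Such low values cannot exclude a shared batch. With the replicate block Slco1a4 stayed at 1.02 with an adjusted p of 0.0523, and the block gave 129 calls between MT and WT mice at 3 months. The methods' t-test and a fit of the compared groups alone could not be run against the mean of the 3 WT groups, nor could the methods' filter on absence calls. A sample left alone in its group was assumed to vary like the others.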

Other observations

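Among markers of cells other than hepatocytes, those of B and plasma cells differed most with age. Igha, the constant region of immunoglobulin A, rose by 2.49 on the log2 scale at 12 months (adjusted p = 0.00902 by limma) and by 3.34 at 19 months (adjusted p = 0.00065), both against 3 months. The 6 B and plasma cell markers on the array, of which 5 were tested, summed to 1109 to 1418 in WT mice at 3 months, 3760 to 4927 at 12 months, 7641 to 8458 at 19 months and 1148 to 1757 in MT mice. The summed levels of T and NK cell markers were 966 to 1071 at 3 months and 669 to 674 in MT mice, and those of neutrophil markers were 819 to 855 and 1186 to 1485. Limma called 0 in either list between these groups. At an unadjusted p under 0.05 there were 2 of 6 tested T and NK cell genes, both lower in MT mice. For neutrophils there were 3 of only 3 tested, all higher. Of 9 stellate cell, 2 exocrine pancreas and 1 kidney markers tested limma called 0 in any comparison, with up to 3, 1 and 0 at an unadjusted p under 0.05. Of 16 tested genes of the NRF2 response, which includes the detoxifying enzymes Nqo1 and Gclc and acts on several Abcc genes, limma called 0 (2 to 5 at an unadjusted p under 0.05), and the medians were 0.03 in MT mice and 0.19 at 19 months, both against WT mice at 3 months. The shares of all probe sets at an unadjusted p under 0.05 were 8.57% to 14.4% over the comparisons. Gsta2 differed by 1.17 in MT mice (adjusted p = 0.225) and Hmox1 by 0.95 at 19 months (adjusted p = 0.269). Cbr3 read 98.4 and 30.8 at 3 months, the second below the array median, so no difference is given for it.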
